A study of Homo sapiens with 9 samples.

Results

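The RNA of HL-60 cells that grow in the presence of daunorubicin (DNR) was compared with that of their parental cells, gene by gene. HL-60 is an established human line of acute myeloid leukaemia with a promyelocytic character. Parental cells received no drug. The resistant line HRD was kept in 30 nM DNR, and the second resistant line of the study, HRA, was kept in 100 nM cytarabine (Ara-C). Each line gave 3 biological replicates of polyadenylated RNA, and no source states whether a line is a clone. HRD is 1 line and its medium held the drug, so resistance, drug exposure and the history of that line cannot be told apart. Genes entered the comparison where the normalized count reached 10 in at least 3 of the 6 parental and HRD libraries, which holds for 12324 of the 20637 genes in the table. A further 8313 genes were not tested, of which 823 had no read in any of the 6 libraries.

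Daunorubicin is an anthracycline. It slips between the base pairs of DNA and holds topoisomerase II on the DNA it has cut, and its quinone ring can pass electrons to oxygen. Cells take it up partly through organic cation carriers, pump it out through transporters of the ABC family, trap it in lysosomes, and reduce it to the less active daunorubicinol with carbonyl reductases. Promyelocytes are granulocyte precursors that fill primary granules with peroxidase and proteases. HL-60 cells can be driven by inducers towards neutrophils, monocytes or eosinophils.

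HRD cells differed from parental cells at about as many genes upwards as downwards. With limma's moderated test on log2(value + 1) and a Benjamini-Hochberg adjusted p below 0.05, 1337 genes (10.8%) were higher and 1490 genes (12.1%) lower in HRD cells. At least a 2-fold change was reached by 683 genes (5.54%), 413 of them higher (3.35%) and 270 lower (2.19%). Most changes were small. The median absolute log2 fold change was 0.22 over all tested genes and 0.58 over the 2827 called genes (22.9%), of which 2772 had no overlap between the 3 HRD and the 3 parental libraries. Groups without overlap occurred in 35.4% of all tested genes. Of the 683 genes, 418 had a parental mean below 100, as did 2589 of all tested genes, and 265 had a mean of 100 or more. Genes at least 2-fold higher took 0.760% to 0.949% of the reads in parental libraries and 2.79% to 3.45% in HRD libraries, and genes at least 2-fold lower took 1.04% to 1.10% in parental and 0.450% to 0.464% in HRD libraries. A change of at least 16-fold was called for 22 higher and 44 lower genes.

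**Figure D1:**
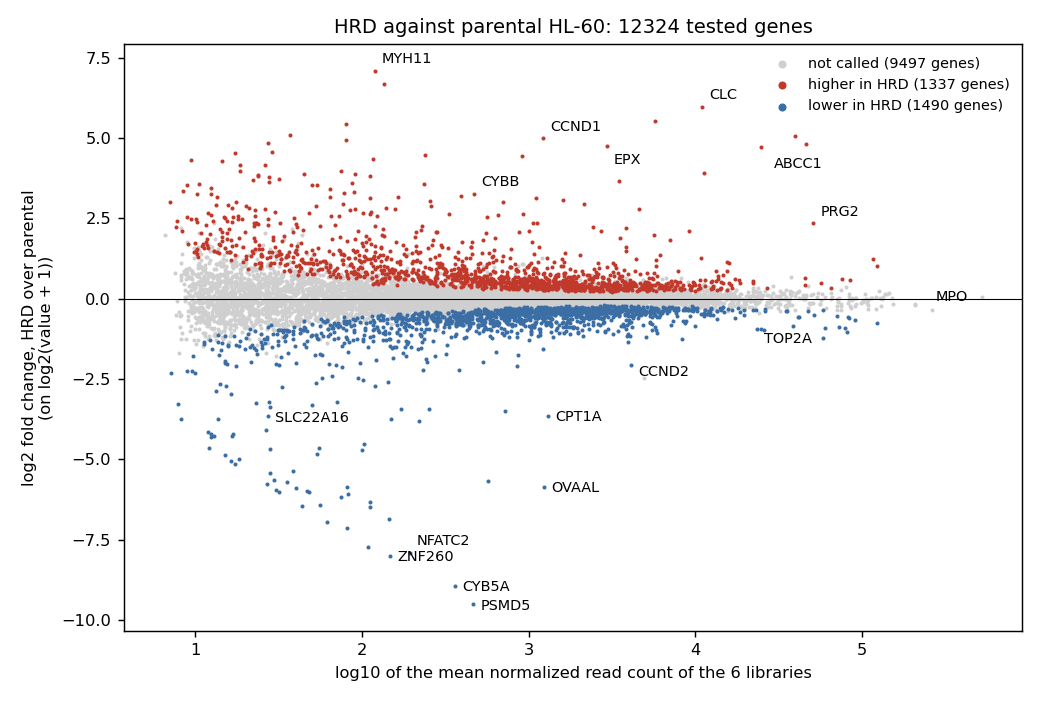
Log2 fold change of HRD over parental cells (vertical axis) against the mean normalized count of the 6 libraries (horizontal log10 axis) for the 12324 tested genes. Red points are the 1337 genes called higher, blue points the 1490 called lower, grey points all others, and the labelled points are genes described in the text.

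Each library held 20822709 to 66563328 reads on genes, and 3 reads correspond to a normalized count of 1.49 to 4.52. The 10 most abundant genes took 6.38% to 7.32% of the reads. The first principal component of the 9 libraries (48.6% of the variance) set the HRD libraries apart from both other lines. On the third (8.89%), replicate 2 of each line lay on 1 side, so counts were also made without replicate 2 of all groups. These counts, chosen after seeing the data, were 739 higher and 723 lower genes. Of the tested genes, 103 reached the expression threshold in HRD libraries and in no parental library, and 80 of these were called higher. Another 85 passed through parental libraries alone, with 71 called lower. Such genes had to differ, and list counts include them. Every list count below is to be read against the 10.8% higher and 12.1% lower of all tested genes. Of the list members named below, S100A8, MMP9, PRG3, GATA1, BACH2, BCL2A1, HMOX1 and FN1 were tested only through HRD libraries, and SLC22A16, CYB5A, ARNTL, GIMAP4, GIMAP6, LPL, S100P and PSMD5 only through parental ones. The 351 genes just inside the threshold, at 10 or more in exactly 3 libraries, had a median mean of 11.5, against 8.57 for the 315 genes just outside it. Promyelocytic markers were present in both lines with 1 exception. MPO, the granule peroxidase, ranged from 274388 to 314199 in parental and from 199686 to 256004 in HRD libraries and did not pass the test (log2 fold change −0.35 ± 0.15, adjusted p = 0.119), but passed with DESeq2 (adjusted p = 0.01). ELANE, the gene of neutrophil elastase, had 6 reads in parental and 2 in HRD cells. CD33, a myeloid surface antigen, did not pass (log2 fold change 0.027 ± 0.079, adjusted p = 0.844). Among markers of other cell types, CD3E of T cells had 3 reads in parental and 0 in HRD cells, and CD14 of monocytes had 0 and 4. KRT8, a keratin of epithelial cells, had 254 and 1150 reads, and CA2, a carbonic anhydrase that red cells carry, had 2159 and 4694. Their part in the results below was not tested.

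Among genes that handle daunorubicin, an uptake carrier fell and an efflux pump rose. SLC22A16, a carnitine and organic cation carrier that takes up anthracyclines, fell in HRD cells. It was tested only through its parental values. Its normalized counts were 57.2, 61.3 and 34.5 in parental replicates 1 to 3 and 1.98, 1.51 and 7.48 in HRD replicates 1 to 3. All HRD libraries lay below all parental ones, with 175 parental against 12 HRD reads, a 12.7-fold lower level (log2 fold change −3.66 ± 0.43, adjusted p = 1.53e-04). In HRA cells its level was 133 ± 18.4 (mean ± SD, n = 3). The efflux side was led by ABCC1, the multidrug resistance protein MRP1, with 1713, 1939.8 and 1746 in parental and 50748, 47459.6 and 44838 in HRD libraries (log2 fold change 4.73 ± 0.083, adjusted p = 1.73e-11). Genes beside it on chromosome 16 were higher too, some by more than ABCC1. NDE1, a partner of dynein, had 2002, 2649 and 2245 in parental and 88119, 77322 and 65952 in HRD libraries (log2 fold change 5.07 ± 0.12, adjusted p = 2.80e-10). FOPNL, a centrosomal gene, had 3167, 3414 and 3082 in parental and 92658, 93151 and 82471 in HRD libraries (log2 fold change 4.79 ± 0.079, adjusted p = 1.72e-11). MYH11, the smooth muscle myosin heavy chain, had 3 reads in parental and 866 in HRD libraries. This is a ratio of 261-fold (95% counting interval 88.9 to 1266), and MYH11 was tested only through HRD libraries. NDE1 had far more reads, 7224 in parental and 290670 in HRD libraries. Whether some NDE1 reads were counted as MYH11 was not tested. KIAA0430 rose by 3.902 ± 0.11 (adjusted p = 8.99e-10), and NOMO3, whose near-identical copies can exchange reads with it, by 5.52 ± 0.11 (adjusted p = 3.30e-11). ABCB1, the gene of P-glycoprotein, had 0 reads in parental and 1 read in HRD libraries, and ABCG2 had mean normalized counts of 5.505 and 6.798. Of the 13 tested members of a list of ABC transporters and vault genes, ABCC1 and ABCA7 were higher and ABCB10 was lower. ABCA7 lost its call without HRD replicate 2 (adjusted p = 0.0841), HRD replicate 3 (0.0787) or parental replicate 3 (0.0592), and ABCB10 was joined by a second lower member without HRD replicate 1.

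Among the 10 tested members of a list of carbonyl and quinone reductases, CBR1, POR and AKR1A1 were higher. The 1 lower member, CYB5A, is a cytochrome b5 and not itself such a reductase, and it was tested only through parental libraries. CBR1, a carbonyl reductase that makes daunorubicinol, had 664, 563 and 571 in parental and 791, 884 and 892 in HRD libraries (log2 fold change 0.51 ± 0.11, adjusted p = 0.00572), and 871 ± 77.9 in HRA cells. The 2 groups did not overlap. CBR1 lies on chromosome 21, where the 24 neighbouring genes had a median log2 fold change of 0.34, and its call was lost without replicate 2 of all groups. POR lost its call without HRD replicate 2 or 3 or parental replicate 2 or 3 (adjusted p from 0.0766 to 0.14). AKR1A1 lost it without any 1 library but parental replicate 1 (0.0502 to 0.157), and the count of higher reductases was 1 without HRD replicate 2, HRD replicate 3, parental replicate 2 or parental replicate 3. NQO1, a quinone reductase, did not pass (log2 fold change 0.22 ± 0.196, adjusted p = 0.469). Of the drug's targets, TOP2A fell (log2 fold change −0.93 ± 0.103, adjusted p = 1.03e-04), while TOP2B (log2 fold change 0.1 ± 0.083, adjusted p = 0.431) and TOP1 (log2 fold change −0.15 ± 0.12, adjusted p = 0.392) did not pass. TDP2, which removes topoisomerase II from DNA ends, was higher by 0.33 on the log2 scale (adjusted p = 0.00559), a call lost without replicate 2 of all groups (0.1). In the list of topoisomerases and adduct repair genes, 3 of 17 were higher and 2 lower. The higher count was 1 without HRD replicate 1, HRD replicate 3, parental replicate 1 or parental replicate 2, and the lower count was 1 without HRD replicate 2 or 3 or any parental replicate.

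Lysosomes take up weak bases such as anthracyclines. In the list of lysosome and vesicle acidification genes, 15 of 28 tested members rose and none fell, against 10.8% and 12.1% of all tested genes, and the median log2 fold change was 0.38. CD63, a membrane protein of late endosomes and granules, had 4125, 4027 and 3338 in parental and 6961, 9734 and 6693 in HRD libraries (log2 fold change 1.01 ± 0.14, adjusted p = 4.26e-04). It lies on chromosome 12 among neighbours whose median log2 fold change was −0.39. The protease CTSS (0.696, adjusted p = 1.28e-04) and the proton pump accessory gene ATP6AP1 (0.64, adjusted p = 7.60e-04) rose by less than 2-fold. Without replicate 2 of all groups, 9 members were called.

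Genes of eosinophils and basophils rose together. All 12 tested members of this list of 19 had positive log2 fold changes and 10 were called higher, with a median log2 fold change of 2.76. PRG3 and GATA1 were tested only through their HRD values. CLC, which encodes the Charcot-Leyden crystal protein, had 292, 586 and 211 in parental and 20742, 28332 and 15328 in HRD libraries. The lowest HRD library was thus far above the highest parental one (62.7-fold, log2 fold change 5.97 ± 0.32, adjusted p = 3.04e-07). EPX, the eosinophil peroxidase, rose from 159, 148 and 343 to 4318, 7723 and 4923 (27.1-fold, log2 fold change 4.76 ± 0.29, adjusted p = 9.97e-07), although the 24 genes around it on chromosome 17 had a median log2 fold change of −0.297. PRG2, the major basic protein of the eosinophil granule, was already abundant in parental cells with 18503, 24793 and 7876, and reached 70713, 133652 and 49519 in HRD cells (log2 fold change 2.34 ± 0.404, adjusted p = 0.00197). In parental and in HRD cells PRG2 was highest in replicate 2 and lowest in replicate 3, and the groups did not overlap.

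Receptors and factors of the same lineage moved in the same direction. CSF2RB, the shared beta chain of the IL-3, IL-5 and GM-CSF receptors, had 12.9, 23.3 and 11.99 in parental and 141, 196 and 157 in HRD libraries (10.02-fold, log2 fold change 3.32 ± 0.29, adjusted p = 1.74e-05). IL1RL1, the IL-33 receptor, had 23.01, 29.4 and 13.5 in parental against 138, 173 and 134 in HRD libraries (log2 fold change 2.76 ± 0.31, adjusted p = 1.04e-04). GATA1, a transcription factor of erythroid, eosinophil and basophil cells, had 3 reads in parental and 63 in HRD libraries. GATA2, a related factor, rose by 0.84 (adjusted p = 0.0182), a call lost without HRD replicate 2 (0.067) or parental replicate 3 (0.0651). HDC, which makes histamine, IL5RA, the IL-5 receptor, and PRG3 completed the list and are named here after their values were seen. IL5RA had 31.4, 61.3 and 29.98 in parental and 253, 366 and 214 in HRD libraries, and its HRA level was 377 ± 174, also above the parental libraries. The levels of CLC (2264 ± 386) and EPX (938 ± 105) in HRA cells lay between those of the other lines, and CSF2RB (14.5 ± 1.5) was near the parental level. In bulk RNA, more cells of a type and more RNA per cell cannot be told apart.

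**Figure D2:**
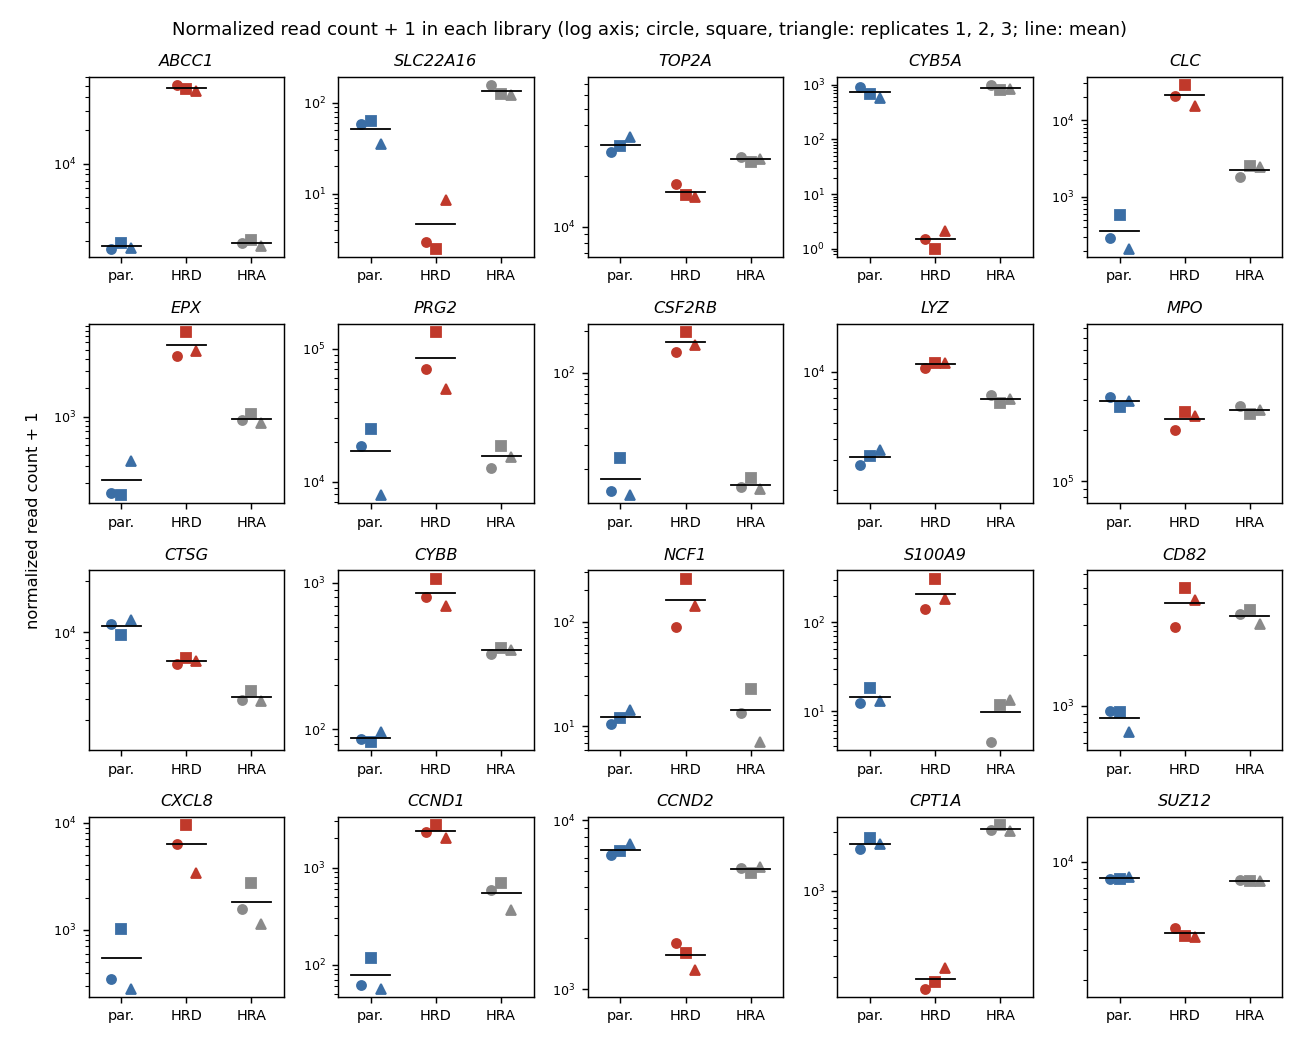
Normalized count plus 1 (vertical log axis) of 20 genes described in the text in each library of parental, HRD and HRA cells. Circles, squares and triangles are replicates 1, 2 and 3, and the line is the mean of the 3. For CLC, all HRD points lie above all parental points, and for CPT1A the HRD points lie below both other lines.

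Genes of the phagocyte oxidase rose as well. This enzyme passes electrons from NADPH to oxygen and consists of a membrane core (CYBB and CYBA), cytosolic subunits (NCF1 and NCF4 among them) and a small GTPase (RAC2). CYBB, the catalytic subunit, had 84.7, 80.98 and 94.4 in parental and 797, 1068 and 695 in HRD libraries (9.599-fold, log2 fold change 3.26 ± 0.16, adjusted p = 1.38e-07). NCF1 had 9.54, 11.04 and 13.5 in parental against 87.3, 258 and 142 in HRD libraries (log2 fold change 3.598 ± 0.46, adjusted p = 2.78e-04), and reads of its near-identical pseudogenes could be split from it or added to it. NCF4 rose from 218, 173 and 237 to 535, 1115 and 1075 (log2 fold change 2.05 ± 0.27, adjusted p = 3.40e-04). The groups did not overlap for these 3 genes. RAC2 rose by 0.71 (adjusted p = 0.0167), and CYBA did not pass (log2 fold change 0.61 ± 0.37, adjusted p = 0.274). In all, 5 of 8 tested members were higher and none lower. HRA cells had 344 ± 18.5 for CYBB, also above the parental libraries.

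Primary granule genes split. LYZ, lysozyme, had 2813, 3179 and 3435 in parental and 10528, 11316 and 11240.1 in HRD libraries, a 3.52-fold rise with a small error (log2 fold change 1.81 ± 0.087, adjusted p = 1.19e-07). The eosinophil-associated ribonucleases RNASE3 (2.095 ± 0.19) and RNASE2 (1.26 ± 0.14) rose with adjusted p-values of 2.32e-05 and 1.09e-04. SRGN, serglycin, the proteoglycan that packs granule proteins, rose from 71470.0, 80641 and 57159 to 157675, 185130.0 and 143238 (log2 fold change 1.22 ± 0.15, adjusted p = 2.22e-04). CTSG, the protease cathepsin G, fell from 11187, 9565 and 11814 to 6448, 7012 and 6724 (1.61-fold lower, log2 fold change −0.69 ± 0.093, adjusted p = 4.05e-04). Altogether 7 of 17 tested members rose and 1 fell, with CTSG the only lower one. The list thus held changes of both signs.

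Late neutrophil genes were weak in both lines, and those that changed were higher in HRD cells. S100A9, a subunit of calprotectin, had 11.2, 17.2 and 11.99 in parental and 139.9, 310.3 and 181 in HRD libraries (14.03-fold, log2 fold change 3.81 ± 0.43, adjusted p = 1.24e-04), and 8.83 ± 4.68 in HRA cells. Its partner S100A8 had 4 reads in parental and 194 in HRD libraries. MCEMP1, a membrane protein of myeloid cells, rose by 1.75 (adjusted p = 8.00e-04), and MMP9, the gelatinase of tertiary granules, rose by 3.85 (adjusted p = 0.004196). In all 5 of 11 tested members were higher and none lower, and MMP9 and S100A8 were tested only through HRD libraries. Of 26 list members, 22 were in the table, so 11 were too low to test.

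The S100 and annexin list, which shares S100A8 and S100A9 with that list, had 10 of 16 tested members higher and 1 lower. ANXA1, an annexin with anti-inflammatory action, had 1280.1, 1448 and 845 in parental and 7454, 9794 and 6859 in HRD libraries (6.83-fold, log2 fold change 2.77 ± 0.18, adjusted p = 1.81e-06). ANXA2 rose by 1.89 ± 0.15 (adjusted p = 8.29e-06). S100A6, calcyclin, rose from 354, 282 and 319 to 1502, 4024 and 3178 (log2 fold change 3.07 ± 0.299, adjusted p = 3.81e-05), with HRD replicate 1 the lowest of the 3 and still above all parental libraries. S100A4 rose by 1.35 ± 0.13 (adjusted p = 4.20e-05). S100P was the exception, and its read counts are given with the genes nearly lost in HRD cells. The median of the list was 0.88. The lower count was 2 without HRD replicate 2 or parental replicate 3.

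Several surface proteins of mature leukocytes were higher. ITGB2, the beta chain of the leukocyte integrins, had 2234, 2067 and 1671 in parental against 3956, 7152 and 6088 in HRD libraries (log2 fold change 1.49 ± 0.202, adjusted p = 4.05e-04). PECAM1, an adhesion molecule of leukocytes and endothelium, rose from 33.1, 30.7 and 64.4 to 181, 241 and 174 (log2 fold change 2.26 ± 0.301, adjusted p = 3.70e-04) while the median of its neighbours on chromosome 17 was −0.33. Of 23 tested integrins and adhesion receptors, 8 were higher and 1, CD44, was lower. CD82, a tetraspanin, rose from 927, 925 and 697 to 2929, 4965 and 4217 (log2 fold change 2.23 ± 0.18, adjusted p = 8.91e-06). ANPEP, the aminopeptidase CD13, rose by 1.83 ± 0.32 (adjusted p = 0.00204). In HRA cells CD82 (3416 ± 329), ANPEP (631 ± 170) and PECAM1 (204 ± 67.3) were also above all parental libraries. ITGB2 (2442 ± 436) was nearer its parental level there. Among 18 leukaemia surface antigens 5 were higher and 3 lower, the latter being FUT4 (−0.397), CD44 (−0.33) and CD47 (−0.23), which carries the signal against phagocytosis. The higher count was 3 without HRD replicate 2, and the lower count was 1 without HRD replicate 2, HRD replicate 3, parental replicate 2 or parental replicate 3. The CD44 call among the adhesion receptors was lost without any 1 HRD replicate, parental replicate 2 or parental replicate 3.

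Some inflammatory and antigen presentation genes were higher too. CXCL8, the chemokine interleukin-8, had 345, 1021 and 282 in parental and 6295, 9448 and 3415 in HRD libraries (12.7-fold, log2 fold change 3.66 ± 0.48, adjusted p = 3.45e-04). Replicate 2 was the highest library of CXCL8 in each line. IER3, an immediate-early gene, rose by 3.17 (adjusted p = 0.00182), or by 3.78 without parental replicate 2, and CCR1, a chemokine receptor, rose by 1.11 (adjusted p = 0.00202). The chemokine and NF-kB list had 8 of 25 members higher and 1 lower, the higher count being 3 without HRD replicate 2, 5 without parental replicate 1 and 4 without parental replicate 3. B2M, the light chain of MHC class I, rose from 36206, 39160.5 and 31261 to 56809, 60062 and 50636 (log2 fold change 0.65 ± 0.11, adjusted p = 0.001602), and HLA-C rose by 0.86 ± 0.196 (adjusted p = 0.00874). Of 19 MHC class I presentation genes 7 were higher and none lower, or 4 without HRD replicate 2. None of 3 tested MHC class II genes passed limma's test, edgeR or DESeq2, with 0 at an unadjusted p below 0.05, and HLA-DRA had 1 read in parental and 0 in HRD libraries. Of 15 monocyte and macrophage genes 6 were higher and none lower, or 1 lower without HRD replicate 2, and of 14 Toll-like and Fc receptors 5 were higher, or 3 without HRD replicate 2 or parental replicate 1. The Fc receptor genes FCGR1A and FCGR1B, and FCGR2A and FCGR2B, are close copies whose reads can be exchanged.

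Transcription factors of the myeloid lineage changed in both directions. CEBPE (log2 fold change 0.104 ± 0.24, adjusted p = 0.8004), SPI1 (log2 fold change 0.32 ± 0.15, adjusted p = 0.158) and MYC (log2 fold change −0.076 ± 0.12, adjusted p = 0.698) did not pass, although SPI1 passed without HRD replicate 1 (adjusted p = 0.0226). RARA, the retinoic acid receptor alpha that drives HL-60 maturation, fell from 297, 250.3 and 282 to 113, 159.7 and 160.3 (log2 fold change −0.95 ± 0.16, adjusted p = 0.00207). RUNX1 fell from 2864, 2976 and 2948 to 2408, 2128 and 2385 (log2 fold change −0.35 ± 0.075, adjusted p = 0.00711), with no overlap, and lost its call without replicate 2 of all groups (adjusted p = 0.126). It lies on chromosome 21, where 14 of its 24 neighbours were higher and their median was 0.39. CEBPA fell by 0.42 on the log2 scale (adjusted p = 0.0311), and this call was lost without any 1 library but HRD replicate 3 (0.0596 to 0.113). ELF4 (0.72) and RUNX2 (0.55) rose with adjusted p-values of 0.00256 and 0.00331. In the list of 54 tested factors 14 were higher and 4 lower. The higher count was 7 without HRD replicate 2 and 8 without parental replicate 1, and the lower count was 2 without parental replicate 2 or parental replicate 3.

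The D-type cyclins, which open the G1 phase with CDK4 and CDK6, changed in opposite directions. CCND1, cyclin D1, had 60.05, 117 and 55.5 in parental and 2342, 2733 and 2010.1 in HRD libraries (31.7-fold, log2 fold change 4.99 ± 0.28, adjusted p = 5.28e-07). CCND2, cyclin D2, had 6217, 6553 and 7278 in parental against 1866, 1642 and 1291 in HRD libraries (4.21-fold lower, log2 fold change −2.08 ± 0.12, adjusted p = 6.47e-07). The cyclin with the higher parental level thus fell while the lower one rose, and after the change the 2 genes had mean normalized counts of 2362 and 1599.6 in HRD cells, which are not corrected for gene length. CDK6 rose from 2612, 2444 and 2744 to 6536, 4652 and 7284 (log2 fold change 1.22 ± 0.14, adjusted p = 1.34e-04), and CCNA1, a cyclin of germ cells and leukaemias, rose from 268, 520.2 and 273 to 1296, 2052 and 1951 (log2 fold change 2.36 ± 0.27, adjusted p = 1.43e-04). HRA cells had 549 ± 164 for CCND1, 5116 ± 227 for CCND2 and 5292 ± 436 for CDK6. The proliferation marker MKI67 did not pass (log2 fold change −0.22 ± 0.13, adjusted p = 0.262). Among 35 tested G1 genes 5 rose and 6 fell, and all 6 lower ones (CCND2, CDK2, E2F1, E2F7, CDK1 and CDK4) lie on chromosomes 10, 12 or 20. Without replicate 2 of all groups, 2 were lower.

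Few DNA repair genes changed. BRCA1, which acts in homologous recombination, had 4150.0, 5003 and 4675 in parental and 2351, 2312 and 2237 in HRD libraries (1.998-fold lower, log2 fold change −0.999 ± 0.08, adjusted p = 9.99e-06). EXO1, a nuclease that resects broken ends, fell by 0.87 on the log2 scale (adjusted p = 4.20e-05), and BRIP1, a helicase partner of BRCA1, fell by 0.52 (adjusted p = 8.68e-04). In the list of double-strand break repair and stress genes 6 of 44 (13.6%) were lower, near the 12.1% of all tested genes, and none higher, or 1 higher without HRD replicate 2 or parental replicate 3, and 33 had a negative log2 fold change. The median, −0.051, was close to 0. Of 43 replication licensing and fork genes 8 were lower and 1 higher, with CDC6, a licensing factor, at −0.79 ± 0.082 (adjusted p = 5.80e-05), and 3 members were higher without parental replicate 1 and 2 without HRD replicate 1. PRKDC, a kinase that joins broken ends, differed by −0.056 ± 0.12 (adjusted p = 0.791).

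SUZ12, a core subunit of Polycomb repressive complex 2, which methylates histone H3 at lysine 27, had 7933, 7898 and 8055 in parental and 4059.6, 3638 and 3597 in HRD libraries (2.12-fold lower, log2 fold change −1.08 ± 0.072, adjusted p = 2.11e-06). The groups were far apart. PCGF2, a subunit of the other Polycomb complex, fell by 1.15 on the log2 scale (adjusted p = 2.86e-04), RNF2, its ubiquitin ligase, by 0.49 (adjusted p = 0.00126), and EZH1, a methyltransferase, by 0.94 (adjusted p = 0.00142). EZH2, the main methyltransferase, did not pass (log2 fold change −0.16 ± 0.077, adjusted p = 0.162). In the list of Polycomb and trithorax genes 10 of 32 fell and 3 rose, against 12.1% and 10.8% of all tested genes. Among DNA methylation genes, DNMT3A, a de novo methyltransferase, rose from 100.5, 119 and 118 to 194, 199 and 190.2 (log2 fold change 0.79 ± 0.15, adjusted p = 0.003898), IDH2 rose by 0.86 ± 0.16 (adjusted p = 0.00256), and the remodeller HELLS fell by 0.57 (adjusted p = 6.04e-04). TET2 did not pass (log2 fold change 0.102 ± 0.084, adjusted p = 0.427). Of 18 such genes 3 were higher and 4 lower, and the lower count was 1 without HRD replicate 2, HRD replicate 3 or parental replicate 3 and 2 without parental replicate 1 or parental replicate 2. TRIM28, the corepressor of KRAB zinc fingers, did not pass (log2 fold change 0.037 ± 0.11, adjusted p = 0.847), and of 21 heterochromatin partners 2 were higher and 3 lower.

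Lipid and redox enzymes changed in both directions. CPT1A, the liver form of the carnitine palmitoyltransferase that admits long-chain fatty acids to mitochondria, had 2181, 2665 and 2376 in parental and 161, 184 and 237 in HRD libraries. This is 12.5-fold lower (log2 fold change −3.64 ± 0.13, adjusted p = 9.51e-09), and HRA cells were at 3189 ± 171. Of 27 fatty acid genes 4 were higher, among them ACSL1 (0.83) and CPT2 (0.56), and 3 lower, LPL among them. ME1 (0.88 ± 0.098) and PGD (0.59 ± 0.11), sources of NADPH, rose, with adjusted p-values of 1.02e-04 and 0.00278. HMOX1, haem oxygenase, had 8 reads in parental and 110 in HRD libraries and was tested only through the latter. In the list of NRF2 targets 6 of 27 were higher and 2 lower, or 1 lower without HRD replicate 3, parental replicate 1 or parental replicate 2. Iron genes had 4 of 16 higher and 1 lower, with the reductase STEAP3 at 0.99 ± 0.093 (adjusted p = 2.93e-05). The lower iron gene, SLC25A28, was not called without HRD replicate 2, and 2 were lower without HRD replicate 1 or parental replicate 3. All 25 cholesterol synthesis genes had positive values with a median of 0.51, but 2 passed, and the number ran from 0 without HRD replicate 2, HRD replicate 3 or parental replicate 3 to 13 without parental replicate 2. It was 6 without HRD replicate 1 and 1 without parental replicate 1.

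Several of the largest rises lay outside these lists or stood alone in them. SORCS2, a sorting receptor of the brain, had 7 reads in parental and 930 in HRD libraries, the parental ones mostly in replicate 3. It was tested only through HRD libraries. Leaving out parental replicate 2 or 3 moved its log2 fold change from 6.68 to 5.99 or 7.53. SCG2, a secretory granule protein, had 19.1, 19.6 and 19.5 in parental and 452, 562 and 365 in HRD libraries (log2 fold change 4.48 ± 0.25, adjusted p = 4.84e-07). ACTL8, an actin-like gene of the testis, had 107, 106 and 43.5 in parental against 2046, 1765 and 1417 in HRD libraries (log2 fold change 4.43 ± 0.36, adjusted p = 1.15e-05) and was at 10.3 ± 4.84 in HRA cells. BACH2, a repressor of B cells, had 5.61, 6.13 and 0 in parental against 141, 143 and 188 in HRD libraries (log2 fold change 5.44 ± 0.62, adjusted p = 1.20e-04). It was tested only through HRD libraries, and leaving out parental replicate 3 gave 4.51. FN1, fibronectin, likewise tested only through HRD libraries, had 6 reads in parental and 278 in HRD libraries. LTBP1, which binds latent TGF-beta, had 7.86, 13.5 and 0 in parental against 141, 161 and 157 in HRD libraries (log2 fold change 4.93 ± 0.74, adjusted p = 7.94e-04), or a log2 fold change of 5.69 without parental replicate 2 and 3.76 without parental replicate 3. SLC1A1, a glutamate transporter, had 17.96, 14.7 and 1.499 in parental against 128, 146 and 145 in HRD libraries (log2 fold change 3.95 ± 0.59, adjusted p = 8.10e-04), or 3.03 without parental replicate 3. SPATC1L, a gene of chromosome 21, had 5.05, 8.59 and 13.5 in parental against 82.4, 356 and 234 in HRD libraries (log2 fold change 4.34 ± 0.54, adjusted p = 2.36e-04), or 4.94 without HRD replicate 1. For these 3 genes the groups did not overlap. In HRA cells SCG2 (211 ± 77.9), BACH2 (60.7 ± 18.5), LTBP1 (94.97 ± 12.9) and SLC1A1 (51.7 ± 3.70) were also above all parental libraries. Between HRD and HRA cells BACH2 (adjusted p = 0.109), LTBP1 (0.508) and SLC1A1 (0.0915) did not pass limma's test. SORCS2, FN1 and SPATC1L were lower in HRA than in HRD cells, at HRA means of 2.68, 9.68 and 16.7. ACVR1, a receptor of the TGF-beta family, rose by 2.93 ± 0.396 (adjusted p = 4.05e-04). TMSB4X, thymosin beta 4, rose by 1.02 ± 0.18 (adjusted p = 0.00191). IGLL1, a surrogate light chain of B cell precursors, fell from 478, 351 and 402 to 13.9, 33.1 and 48.1 (log2 fold change −3.803 ± 0.35, adjusted p = 2.55e-05).

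A group of 16 genes was nearly lost in HRD cells: their parental mean was 100 or more, and no HRD library exceeded a normalized count of 5. By this rule they were tested only through parental libraries. In the other direction MYH11 met the mirrored rule, with the limit on its reads described above. The losses included PSMD5, a chaperone of proteasome assembly, and CYB5A, a cytochrome b5, then NFATC2 and ZNF260, whose RefSeq promoter sequences are given with that of ZNF304 because these 5 genes had the highest parental means of those with an entry. Each sequence is the 250 bases before the annotated start in GRCh38.p14, read 5′ to 3′ on the gene's strand, with each CG dinucleotide in capitals. CG reads the same on both strands, and it is the site at which human DNA is methylated. Methylation was not analysed here. The positions are chr9:120842923-120843172 (minus strand) for PSMD5, chr18:74291964-74292213 (minus) for CYB5A, chr20:51562840-51563089 (minus) for NFATC2, chr19:36528272-36528521 (minus) for ZNF260 and chr19:57351021-57351270 (plus) for ZNF304.
PSMD5: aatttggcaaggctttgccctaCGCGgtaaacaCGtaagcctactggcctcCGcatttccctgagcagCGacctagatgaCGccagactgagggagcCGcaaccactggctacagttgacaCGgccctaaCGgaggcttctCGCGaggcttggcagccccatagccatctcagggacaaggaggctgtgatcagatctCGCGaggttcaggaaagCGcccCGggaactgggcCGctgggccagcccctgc
CYB5A: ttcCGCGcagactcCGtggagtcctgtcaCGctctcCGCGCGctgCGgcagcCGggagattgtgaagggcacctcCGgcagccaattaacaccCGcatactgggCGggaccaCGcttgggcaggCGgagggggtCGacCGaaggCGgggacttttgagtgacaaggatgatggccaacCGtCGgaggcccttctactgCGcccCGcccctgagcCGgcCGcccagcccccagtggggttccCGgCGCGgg
NFATC2: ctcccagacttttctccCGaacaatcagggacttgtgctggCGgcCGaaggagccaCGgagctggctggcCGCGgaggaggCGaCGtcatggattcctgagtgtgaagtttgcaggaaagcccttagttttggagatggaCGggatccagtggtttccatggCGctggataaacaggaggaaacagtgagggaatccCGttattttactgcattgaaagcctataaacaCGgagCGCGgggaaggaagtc
ZNF260: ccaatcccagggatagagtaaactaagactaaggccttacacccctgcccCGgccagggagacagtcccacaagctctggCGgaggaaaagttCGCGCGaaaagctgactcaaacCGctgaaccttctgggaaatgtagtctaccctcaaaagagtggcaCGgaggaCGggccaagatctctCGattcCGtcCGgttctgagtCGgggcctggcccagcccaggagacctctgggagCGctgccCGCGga
ZNF304: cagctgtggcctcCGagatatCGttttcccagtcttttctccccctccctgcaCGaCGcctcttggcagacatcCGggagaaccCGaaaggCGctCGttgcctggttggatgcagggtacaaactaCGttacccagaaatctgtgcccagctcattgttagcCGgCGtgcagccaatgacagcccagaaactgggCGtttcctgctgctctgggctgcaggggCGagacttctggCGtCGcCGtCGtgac
These windows hold 16, 26, 14, 15 and 17 CG. The 11 of the 16 genes with an entry had a median of 14 CG, and 1 of them (9.09%) had at least 20. Among 9546 tested genes with an entry the median was 21 and 56.4% had at least 20. Among all 27305 promoters of the table the median was 11, 32.1% had at least 20 and 93.6% had any.

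PSMD5 had 868, 861 and 1059.7 in parental and 0, 0 and 1.07 in HRD libraries, and CYB5A had 929, 665 and 585 in parental against 0.496, 0 and 1.07 in HRD libraries. For both, the HRD reads that remained were 1 and 2 in all 3 libraries together. NFATC2, a calcium-regulated transcription factor, had 337, 372 and 449.6 in parental and 0.992, 0 and 1.07 in HRD libraries, 1204 against 3 reads, a ratio of 445-fold (95% counting interval 152 to 2159). ZNF260, a zinc-finger gene of chromosome 19, had 289, 285 and 309 in parental against 0.496, 0 and 0 in HRD libraries, 953 reads against 1, with a ratio of 1056-fold (95% counting interval 189 to 41734). In HRA cells both genes stayed high, at 443 ± 47.7 and 536 ± 77.3. PSMD5-AS1, the antisense neighbour of PSMD5, had 641 parental and 0 HRD reads and was at least 237-fold lower, a bound that sets the 3 HRD libraries together at 3 reads. The counting's strand setting is not given in the sources used here, so reads of the pair may have been exchanged. LPL, lipoprotein lipase, had 435 and 0 reads and was at least 161-fold lower, although HRA cells had 1384 ± 157. ZNF577 had 396 and 0 reads and was at least 146-fold lower. S100P had 374 reads in parental and 13 in HRD libraries, and FSTL5, a follistatin-like gene, had 546 and 3. The remaining genes were NCALD, ZNF304, ZNF776, MIR4697HG, ZNF649, GIMAP6 and IGFBP2, with 1 to 11 HRD reads each. Of the 16, 12 had a mean of at least 100 in HRA cells. The other 4 were S100P (26.5 ± 5.402), GIMAP6 (19.98 ± 2.81), IGFBP2 (7.22 ± 2.29) and FSTL5 (2.15 ± 1.91). FSTL5, LPL, IGFBP2 and S100P were also low in parental replicate 3, and without it the log2 fold changes of LPL and FSTL5 moved from −6.41 to −7.30 and from −6.19 to −7.02.

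**Figure D3:**
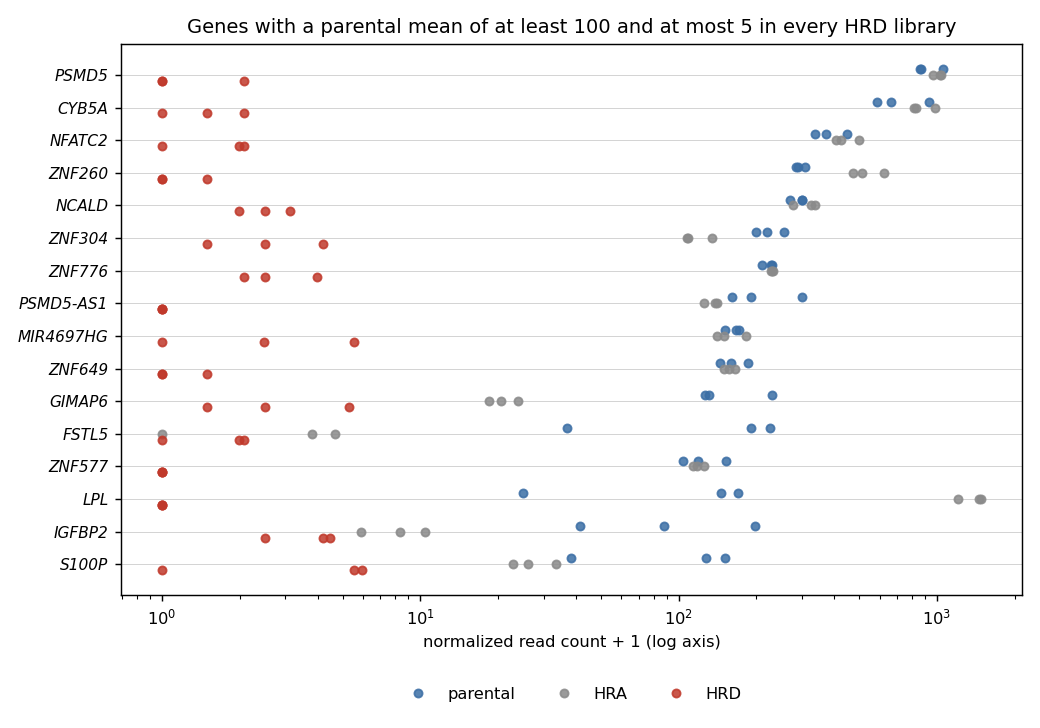
Normalized count plus 1 (log axis) in each library of parental, HRA and HRD cells for the 16 genes nearly lost in HRD cells. All HRD points lie at or below 5, whereas 12 of the genes have an HRA mean of at least 100.

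Close to this group were genes with more remaining reads. OVAAL, a long non-coding RNA, had 2094, 2332 and 2878 in parental and 31.3, 43.7 and 49.2 in HRD libraries (57.96-fold lower, log2 fold change −5.86 ± 0.17, adjusted p = 9.42e-10), and 2494 ± 186 in HRA cells. ARNTL, which encodes the clock factor BMAL1, had 57.2, 95.7 and 76.4 in parental against 0.992, 0 and 2.14 in HRD libraries, 231 reads against 4 (log2 fold change −5.36 ± 0.404, adjusted p = 6.39e-06), and was tested only through parental libraries. HRA cells kept ARNTL at 77.9 ± 9.22. Of 19 tested clock genes 3 were lower and none higher, so 15.8% were called, against 22.9% of all tested genes. The higher count was 1 without HRD replicate 1 or parental replicate 2. The lower clock genes other than ARNTL were ARNTL2 (−0.598, adjusted p = 0.00268) and NR1D1 (−0.497, adjusted p = 0.0363). NR1D1 lost its call in 5 of the 6 fits that left out 1 library, the exception being parental replicate 2 (adjusted p from 0.0501 to 0.126 in the 5). All 3 tested GIMAP genes, small GTPases of lymphocytes on chromosome 7, were lower, but GIMAP4 and GIMAP6 were tested only through parental libraries and so had to differ. GIMAP4 had 257 reads in parental and 1 in HRD libraries, and GIMAP2 lost its call without any 1 library other than parental replicate 1 (adjusted p from 0.0534 to 0.102).

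Many zinc-finger genes fell, and chromosome 19 held 57 of the 99 that did. This chromosome carries large clusters of KRAB zinc fingers, which recruit TRIM28 and heterochromatin to transposable elements. Zinc-finger members were taken by symbol alone, here and in the counts below. They include antisense entries, such as ZNF667-AS1, which was called higher, and were not limited to KRAB genes. Of 143 tested zinc-finger symbols on chromosome 19, 57 were lower and 5 higher (median −0.27), and 34 were at least 2-fold lower. Of 238 zinc-finger symbols on other chromosomes, 42 were lower, 13 higher and 6 at least 2-fold lower. The 648 other tested genes of chromosome 19 had 34 lower, 44 higher and 13 at least 2-fold lower. Where the parental mean reached 20, the genes without a single HRD read were 10 of 140 zinc fingers on chromosome 19 (7.14%), 2 of 230 on other chromosomes (0.870%), 0 of 605 other genes on chromosome 19, and 15 of 11411 tested genes (0.131%). The 10 were ZNF577, ZNF714, ZNF431, ZNF345, ZNF850, ZNF614, ZNF790, ZNF430, ZNF772 and ZNF582, of which 7 had an HRA mean of at least 20. Genes without an HRD read were tested only through parental libraries and so had to differ. The counts of lower genes above include them. The loss was partial in others. ZNF331 had a mean of 279.8 ± 9.94 in parental and 20.4 ± 6.39 in HRD libraries (log2 fold change −3.75 ± 0.205, adjusted p = 3.59e-07), and ZNF83 had 1372 ± 158 and 327 ± 81.3 (log2 fold change −2.09 ± 0.18, adjusted p = 1.81e-05). Along the chromosome, the lowest windows of 25 neighbouring genes ran from ZNF146 to SPRED3 (13 lower, median −0.66) and from ZNF471 to ZNF552 (17 lower, median −0.56). Zinc-finger genes resemble each other, and reads that fit several copies can be lost or exchanged in counting.

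Gene position also separated the lines over broad stretches, which is described without a test. Chromosome 17 from TAOK1 to ATP5G1 held the lowest values. The ends of this stretch were set on these same values, by running medians of 25 genes beyond a limit of 0.3. Its low level thus follows in part from that choice. Of its 195 tested protein-coding genes 143 were lower and 6 higher, and the median log2 fold change was −0.81, with 10% of genes below −1.17 and 10% above −0.07. The typical gene of this stretch had 57.2% of its parental level in HRD cells. The other 462 genes of the chromosome had 77 lower and 48 higher and a median of −0.03, or 98.1% of the parental level. They include further low stretches, such as TUBD1 to BPTF (median −0.29) and ENDOV to ASPSCR1 (−0.31). Over all alternative settings the median of the stretch stayed between −0.82 and −0.78. TOP2A lies within it, and its log2 fold change of −0.93 was near the median of its 24 neighbours (−0.89), of which 22 were lower. BRCA1 (neighbours −0.84), CDC6 (−0.89), RARA (−0.87) and SUZ12 (−0.83) lie there too. So do EZH1, PCGF2, RPL27 and RPL23. The 5 lowest windows of 25 genes in the genome, RDM1 to CWC25, RPL19 to SMARCE1, RAB5C to IFI35, LSM12 to MAP3K14 and NSRP1 to NLE1, all lay in this stretch, at medians from −0.93 to −0.83.

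Chromosomes 12 (median −0.28, 258 lower and 26 higher of 685), 20 (−0.20, 90 and 22 of 301) and 17 (−0.19, 234 and 56 of 708) had the lowest medians. Chromosome 10 came next, with 133 lower and 37 higher of 466. On these 4 chromosomes 33.1% of 2160 tested genes were lower and 6.53% higher, against 7.67% and 11.8% of 9914 genes elsewhere. The 4 were picked by their medians in these same values, so an excess of lower genes on them follows from the choice. Chromosomes 21 (median 0.33, 53 higher and 1 lower of 126), 8 (0.16, 69 and 19 of 386) and X (0.13, 76 and 19 of 377) had the highest medians. On chromosome 16 the stretch that begins with BFAR and ends with IQCK, which holds ABCC1, had 13 of 25 genes higher and 5 lower. The 140 genes before it, from POLR3K to PARN, had none higher and 49 lower (median −0.39), and the 353 after it had 36 higher and 9 lower (0.08). The highest window of the genome was on chromosome 22, from TOM1 to LGALS1, with 13 of 25 genes higher, 1 lower and a median of 0.63. It holds HMOX1, NCF4, CSF2RB and RAC2, described above, and LGALS1, galectin 1, with a mean of 2208 ± 686 in parental and 9159.5 ± 4721 in HRD libraries (log2 fold change 1.97 ± 0.35, adjusted p = 0.00255). The other high windows were TCP10L to DOPEY2 (0.43) and U2AF1 to LSS (0.38) on chromosome 21, BFAR to IQCK (0.41), and NSDHL to PLXNA3 (0.41) on the X chromosome.

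**Figure D4:**
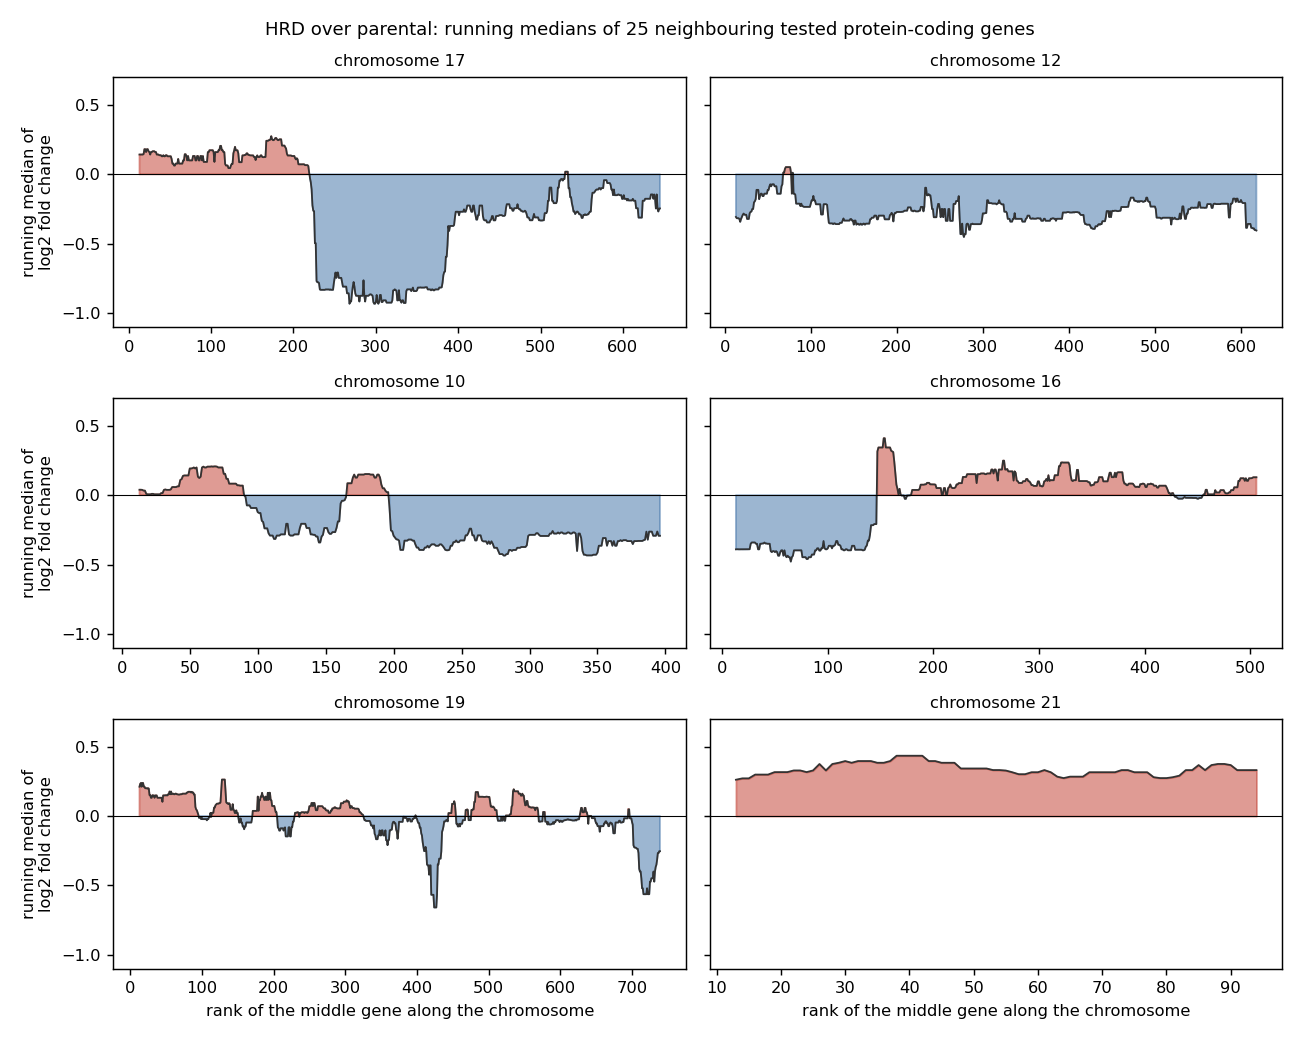
Running median of the log2 fold change of HRD over parental cells (vertical axis) over 25 neighbouring tested protein-coding genes, against gene rank along chromosomes 17, 12, 10, 16, 19 and 21 (horizontal axis). The fall to about −0.9 in the middle of chromosome 17, the rise after the first genes of chromosome 16 and the positive values along chromosome 21 stand out.

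Of all 1475 lower genes with a position, 715 (48.5%) lay on the 4 low chromosomes, which were picked by their medians in these same values. In lists with at least 6 lower members, these were all 6 lower G1 genes, 6 of 7 lower mitosis genes and 5 of 8 lower licensing genes. They were also 4 of 6 lower repair, 6 of 10 Polycomb, 5 of 6 proteasome and 7 of 15 ribosomal protein genes. Of the tested members of these lists, in this order, 9 of 35, 11 of 45, 9 of 43, 6 of 44, 11 of 32, 10 of 48 and 12 of 76 lay there. Lists with fewer lower members varied, from 2 of 2 TGF-beta genes and 3 of 4 interferon-stimulated genes to 1 of 4 uptake and nucleoside genes and 0 of 3 leukaemia surface antigens. Ribosomal protein genes, the most abundant list, had 15 of 76 lower and 1 higher, and the higher one, RPS15A, lost its call without HRD replicate 2, HRD replicate 3 or any 1 parental replicate. On chromosomes 10, 12, 17 and 20, 7 of 12 were lower with a median of −0.48, and elsewhere 8 of 64 with a median of −0.12. RPL27, a protein of the large subunit, had 83945, 87284 and 72498 in parental and 33321, 38658 and 32367 in HRD libraries (2.34-fold lower, log2 fold change −1.22 ± 0.12, adjusted p = 4.08e-05). RPLP0 (−1.05 ± 0.13), RPL23 (−0.92 ± 0.12) and RPSA (−0.93 ± 0.13), the last on chromosome 3, fell as well, with adjusted p-values of 1.78e-04, 2.73e-04 and 5.00e-04. The part of position in these list counts was not tested.

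The other lists are described by their counts, here and in the next paragraph. Of all tested genes 10.8% were higher and 12.1% lower, or 22.9% in either direction. Several lists were near or below that. In either direction, 28.9% of mitosis, 20.8% of proteasome, 20% of BCL2 family, 18.5% of caspase and 10.9% of oxidative phosphorylation genes were called. Mitosis genes had 6 of 45 higher and 7 lower, with PLK1 (0.44) and ESPL1 (−0.47) the clearest. The higher count was 3 without parental replicate 1 or parental replicate 2, and the lower count was 4 without HRD replicate 2, 3 without HRD replicate 3 or parental replicate 1 and 2 without parental replicate 2. Proteasome genes had 4 of 48 higher and 6 lower. The higher count was 2 without HRD replicate 1 or parental replicate 3 and 1 without HRD replicate 2, and 10 were lower without parental replicate 3. Interferon-stimulated genes had 7 of 34 higher and 4 lower, or 2 lower without HRD replicate 2, HRD replicate 3, parental replicate 2 or parental replicate 3. MDM2, a ubiquitin ligase, fell (−0.44 ± 0.09, adjusted p = 0.00497), a call lost without replicate 2 of all groups (0.0732), and lies on chromosome 12 among neighbours with a median of −0.33. CDKN1A, an inhibitor of cyclin-dependent kinases, did not pass (log2 fold change 2.16 ± 1.003, adjusted p = 0.149), though it did without parental replicate 2 (adjusted p = 0.0111). BCL2 family genes had 2 of 15 higher and 1 lower. BCL2A1, an inhibitor of apoptosis, was higher by 2.49 ± 0.51 (adjusted p = 0.005304) but was tested only through HRD libraries, and BAX, which promotes apoptosis, did not pass (log2 fold change 0.0015 ± 0.13, adjusted p = 0.996). The lower count was 2 without HRD replicate 2. The calls of MCL1 (0.31) and BCL2L1 (−0.42) were each lost in 4 of the 6 fits that left out 1 library. These were without parental replicate 1 or 2 for both, HRD replicate 1 or 2 for MCL1 (adjusted p from 0.0542 to 0.0878), and HRD replicate 1 or 3 for BCL2L1 (0.0532 to 0.08). Caspase and death receptor genes had 4 of 27 higher and 1 lower, with 2 higher without HRD replicate 2 or parental replicate 1 and 0 lower without HRD replicate 1, HRD replicate 3 or parental replicate 2.

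Unfolded protein response genes had 8 of 30 higher and 2 lower, and 4 were higher without replicate 2 of all groups. Heat-shock and immediate-early genes had 6 of 31 higher and none lower, or 2 without HRD replicate 2. The list of replication-dependent histones had 6 of 18 members higher, led by HIST1H2BD (1.47) and HIST1H1C (1.43). Its 1 lower member was NPAT, which is not a histone gene. Glutathione transferases and metallothioneins had 6 of 15 higher and 1 lower, the higher count being 2 without HRD replicate 2 and 3 without parental replicate 1. Nuclear oxidative phosphorylation genes had 5 of 46 higher and none lower, the higher count being 0 without HRD replicate 2 or parental replicate 3 and 3 without parental replicate 2, with 1 lower without HRD replicate 1 or HRD replicate 2. Uptake and nucleoside genes had 1 of 19 higher, the ribonucleotide reductase subunit RRM2B (0.53, adjusted p = 0.00584), and 4 lower, or 2 without HRD replicate 2, parental replicate 2 or parental replicate 3. TGF-beta genes had 4 of 24 higher and 2 lower, the higher count being 2 without HRD replicate 2, HRD replicate 3 or parental replicate 1 and the lower count 1 without parental replicate 2. Stem cell genes had 4 of 10 higher and 1 lower, or 2 higher without parental replicate 3 and 0 lower without any 1 library but parental replicate 3. Arginine, serine and one-carbon genes had 1 of 24 higher and 3 lower, or 1 lower without parental replicate 2 and 0 higher without HRD replicate 2, HRD replicate 3 or parental replicate 1. SUMO genes had 1 of 25 higher and 2 lower, SENP1 (−0.499) among the latter, with 1 lower without parental replicate 2 and 0 higher without any 1 library but parental replicate 1. HOX genes had 2 of 15 higher and none lower, or 1 higher without HRD replicate 2 and 1 lower without parental replicate 3. Glycolysis genes had 1 of 32 higher and 1 lower. The higher count was 2 without HRD replicate 1 and 0 without HRD replicate 2, parental replicate 1 or parental replicate 3, and the lower count was 0 without HRD replicate 3, parental replicate 1 or parental replicate 2. None of 31 ribosome biogenesis genes and none of 9 mitochondrially encoded genes passed limma's test with all libraries. At an unadjusted p below 0.05 these were 3 and 0, edgeR called none of either list, and DESeq2 called 2 ribosome biogenesis genes. Without HRD replicate 1, 3 of these were lower, without parental replicate 3 1 was lower and without parental replicate 1 1 was higher. Of the lists of other cell types, T and NK genes had 0 of 3 (also 0 at an unadjusted p below 0.05 and with edgeR or DESeq2, but 1 lower without HRD replicate 3), erythroid genes 1 of 4 higher, B lymphoid genes 1 higher and 1 lower of 3, and fibroblast, endothelial and epithelial genes 3 of 4 higher, with summed normalized counts of 107 to 139 in parental and 415 to 541 in HRD libraries.

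**Figure D5:**
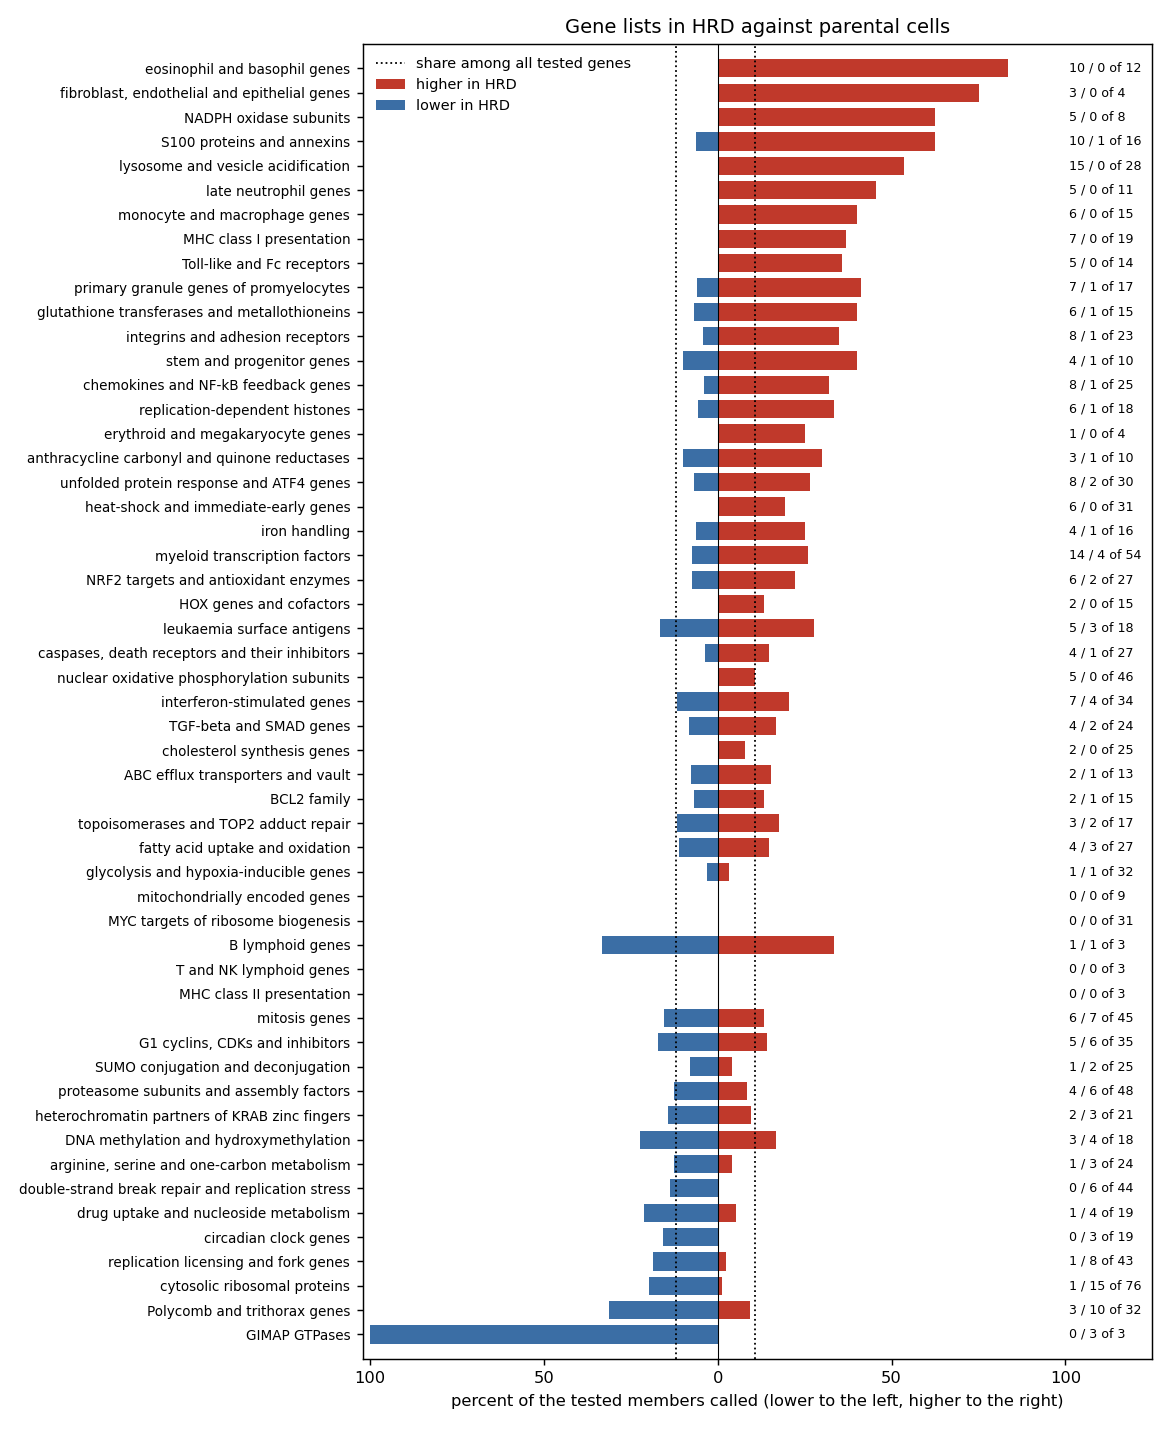
Percent of tested members called higher (bars to the right) and lower (bars to the left) in HRD cells for the gene lists described in the text, with the dotted lines at the shares of all tested genes (10.8% and 12.1%). Eosinophil and basophil, NADPH oxidase, S100 and annexin and lysosome genes extend furthest to the right among lists of 8 or more tested members.

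Against the other resistant line, 3725 genes (30.2%) were called, 1750 (14.2%) higher and 1975 (16%) lower in HRD than in HRA cells, a comparison that uses the same HRD libraries. Without HRA replicate 1 these counts were 1053 and 1296. CLC was higher in HRD than in HRA cells by 3.21 on the log2 scale (adjusted p = 4.46e-05), CSF2RB by 3.41 (1.39e-05), CYBB by 1.28 (2.08e-04) and CCND1 by 2.14 (3.15e-04), all with limma. CPT1A (−4.05, 3.67e-09), CCND2 (−1.69, 3.82e-06) and SUZ12 (−1.03, 3.11e-06) were lower in HRD cells. CCNA1 was higher in HRA cells than in HRD cells (−1.41, 0.003296), although it rose in HRD over parental cells. IL5RA did not differ beyond the test's threshold between the 2 resistant lines (−0.37, 0.467), nor did CBR1 (−0.023, 0.8902).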

How the data were processed

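Polyadenylated RNA of parental HL-60, HRA and HRD cells (3 replicates each, grouped by the resistance label) was sequenced from stranded libraries, per the labels' protocols. The submitters' processing notes list the assembly hg19 and, among tools, HTSeq 0.11.1, DESeq2, TopHat2 2.1.1 and Cufflinks 2.2.1, with Bowtie2 2.3.5.1 and Picard. What each did, the annotation and the strand setting are not given in the sources used here. The deposited signal gives, for each gene, reads scaled by the library's size factor. All values (100%) were whole multiples of 1 constant per library within 0.001, so whole reads were recovered for edgeR 4.0.16 and DESeq2 1.42.0 as alternatives.

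Values were fitted as log2(value + 1), all 9 libraries in 1 model with a variance trend (limma 3.58.1 under R 4.3.3), and two-sided p-values were Benjamini-Hochberg adjusted over 12324 genes (threshold 0.05). The ± after a log2 fold change is its standard error. Folds on the log2(value + 1) scale are too small for low genes. With 3 libraries a group, exact permutation cannot reach p-values under 0.1. On simulated counts of 12057 genes, changes of 1.5-, 2- and 4-fold were set in 50, 100 and 50 genes. All of these had a parental mean of at least 50. Of them 46%, 82% and 100% were recovered, with 8 false among 163 calls. The data had 2827 calls and many changed genes of low parental mean, so these rates may not hold for them. Replicate numbers did not meet the rule for pairing (every same-number correlation over 0.1) and were no block. Counting intervals (95%, exact) cover counting error only, and a group at 0 was given a floor of 3 reads. Counts varied between replicates 15.4 to 61.9 times as much as counting error (chi-square per degree of freedom).

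Gene types, neighbours and promoters came from RefSeq tables of GRCh38.p14, matched by symbol (12074 tested genes), and serve for order and names only, since counts were made on hg19. The 54 lists hold 1477 genes, 1369 in the table (53 under another symbol) and 1168 tested. Members and lists were chosen with earlier results of these data known. Names were drawn from the 15 largest rises and 15 largest falls with a mean of at least 100 and no overlap, up to 4 members per list with the smallest adjusted p, 44 fixed genes, up to 12 nearly lost genes and 10 with the largest difference of means, not all of which are described; other names were added after their values were seen. List members with no row were not analysed here. Other pseudocounts, filters, scalings, tools, a replicate block and fits leaving out each replicate were the alternatives.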

Additional observations from a re-analysis of the deposited data

How the results depend on the processing

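Without replicate 2 of all groups, a setting added after seeing the data, 739 genes were higher and 723 lower in HRD than in parental cells, and 762 higher and 1021 lower than in HRA cells. A filter at 50 left 251 genes at least 2-fold higher and 167 at least 2-fold lower, with fewer genes tested. Leaving out 1 replicate gave 895 to 1324 higher and 1122 to 1551 lower genes, 314 to 445 at least 2-fold higher and 218 to 285 at least 2-fold lower. Against HRA cells it gave 1053 to 1511 higher and 1296 to 1819 lower, the lowest without HRA replicate 1. Fewer samples were fitted in these settings. The other settings stayed within 1.5 times: 1343 and 1482 with edgeR, 1472 and 1639 with DESeq2, 984 and 1091 with 6 libraries. Upper-quartile scaling gave 50.6% of calls higher against 47.3%, and no scaling moved the median of all genes by over 0.1. With a replicate block the counts were 1731 and 1875. Same-numbered parental and HRD libraries correlated at −0.093, 0.25 and 0.30 in their deviations, and replicates 2 and 3, but not 1, correlated best with their own number. Not every correlation was over 0.1, so the block was left out of the reported test. MPO passed with it (adjusted p = 0.0444). Of 204 named genes that passed, 148 passed in every alternative, 56 were lost in at least 1 (6 of the 97 changed at least 2-fold) and none reversed. Of 18 that did not pass, 3 gained a call in at least 1. Genes below the threshold of 10 normalized reads were not tested.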
